A study of Mus musculus with 4 samples.

Results

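A set of 10 cartilage genes was followed through 4 single-cell RNA-seq libraries of mouse artery: the transcription factor gene Sox9 and 9 genes of cartilage matrix, Col2a1, Col9a3, Col10a1, Col11a1, Col11a2, Acan, Chad, Hapln1 and Snorc. They were taken by name, and all 10 were listed in each of the 4 deposited tables, among 34469 genes listed in at least 1 of them. Aortic and carotid plaques came from ApoE-/- mice and from Trf2T188A/ApoE-/- mice, and ligated left common carotid arteries came from wild-type control mice and from Trf2T188A mice, with 1 library per group. The questions put to these genes were which were on in plaque cells and which in ligated artery, in what order and in which cells together, and how the genotypes compared.

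Trf2T188A is a mutant of the telomere-protecting protein TRF2, driven in arterial vascular smooth muscle cells (VSMCs) by a minimal Sm22a promoter. Mice of both plaque groups carried Myh11-CreERt2, the Confetti lineage reporter and ApoE-/-. All 4 groups were on a C57Bl6/J background. Plaque mice received 10 tamoxifen injections from 6 weeks of age, which label VSMCs and their progeny, and then a high fat diet for 14 weeks, and only males carry this Cre. Plaque cells were kept by the authors where their clusters expressed Confetti reporters. Ligated mice were males of 4 to 5 months, and their arteries were taken 28 days after ligation. Cells of these arteries were filtered by the authors on quality, such as detected genes and mitochondrial reads, but not by cell type. Endothelial and immune cells were thus included. The number of mice behind a library is not given in the sources used here.

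The plaque libraries held 1502 ApoE-/- and 929 Trf2T188A/ApoE-/- cells with a median of 22765.5 and 24377 unique molecular identifiers (UMIs, each standing for 1 captured transcript) per cell. The authors asked for more detected genes per cell in ApoE-/- than in Trf2T188A/ApoE-/- plaques, and the lowest cells had 1531 and 1056 genes. This cell filter differs together with the plaque genotype and cannot be told apart from it. The ligation libraries held 4967 control and 5392 Trf2T188A cells with medians of 8631 and 11153. No barcode was shared by the plaque libraries and 10 were shared by the ligation libraries. With 1 library per group no test across samples was possible, so levels are given as UMIs per 10000 UMIs with 95% exact Poisson intervals that cover counting error only, and a gene was counted as different where 2 libraries were at least 2-fold apart. Terf2, the endogenous gene, stood at 0.183 UMIs per 10000 in each plaque library, at 0.179 in control and 0.168 in Trf2T188A ligated carotids, and the 3' counts do not tell a mutant transcript from a normal transcript, so this row checks nothing about the labels.

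Sox9 is the transcription factor that directs cartilage formation. Its targets in cartilage include Col2a1, the main fibrillar collagen, Col11a1 and Col11a2, whose chains join the same fibrils, Col9a3, a chain of the collagen that decorates them, and Acan, which encodes aggrecan, the proteoglycan that holds water. Hapln1 encodes the link protein that ties aggrecan to hyaluronan, Chad encodes the cell-binding protein chondroadherin, Snorc encodes a small membrane proteoglycan of chondrocytes, and Col10a1 marks hypertrophic chondrocytes next to mineralizing cartilage. In diseased arteries a share of VSMCs is known to take on chondrocyte-like gene expression near calcified areas.

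On GRCm38 the genes lie on 9 chromosomes, with Sox9 (chr11:112782224-112787760, plus strand) and Chad (chr11:94565047-94569127, plus strand) the only pair that share a chromosome. RefSeq promoter entries matched 6 of the 10 genes, and Sox9, Col2a1, Col9a3 and Snorc had no entry. The 250 bases before the start in RefSeq (GRCm38.p6) are shown for Col10a1, Chad, Col11a2 and Acan. Col10a1, Chad and Col11a2 were the only genes among the 6 whose windows held a searched motif. Acan was found in every cluster of at least 50 cells in both experiments. Among those clusters all 10 genes were highest in chondrocyte-like plaque cells, Col11a1 and Hapln1 included. Their level there thus does not set the shown genes apart. Capitals mark the motifs found on either strand. The TATA box was searched as TATAAA. The core of a Sox site was searched with the letters ACAAAG, and a variant of that core, which was found in none of the 6 windows, with the letters ACAATG.
Col10a1, chr10:34389731-34389980, plus strand: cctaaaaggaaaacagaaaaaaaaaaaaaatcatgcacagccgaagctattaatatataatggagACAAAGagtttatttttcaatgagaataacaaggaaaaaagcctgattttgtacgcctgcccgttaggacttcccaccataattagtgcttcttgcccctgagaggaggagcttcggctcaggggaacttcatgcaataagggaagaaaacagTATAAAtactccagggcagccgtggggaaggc
Chad, chr11:94564797-94565046, plus strand: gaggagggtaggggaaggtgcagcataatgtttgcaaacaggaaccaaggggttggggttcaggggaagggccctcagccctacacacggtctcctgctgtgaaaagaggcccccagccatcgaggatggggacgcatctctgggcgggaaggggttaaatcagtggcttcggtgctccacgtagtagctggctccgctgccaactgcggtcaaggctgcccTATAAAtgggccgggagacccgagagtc
Col11a2, chr17:34038888-34039137, plus strand: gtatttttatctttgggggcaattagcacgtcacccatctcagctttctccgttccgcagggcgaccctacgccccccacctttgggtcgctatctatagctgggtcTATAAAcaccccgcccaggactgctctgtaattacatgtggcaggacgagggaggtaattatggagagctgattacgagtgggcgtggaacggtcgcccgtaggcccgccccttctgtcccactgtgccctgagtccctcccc
Acan, chr7:79052976-79053225, plus strand: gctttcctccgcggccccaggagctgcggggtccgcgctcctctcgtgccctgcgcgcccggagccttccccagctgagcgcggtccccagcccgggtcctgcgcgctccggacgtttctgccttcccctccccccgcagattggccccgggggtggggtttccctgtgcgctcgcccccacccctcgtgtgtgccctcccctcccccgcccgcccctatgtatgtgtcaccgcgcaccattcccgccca
The TATA box lay 32 to 27 bases before the start of Col10a1 and 28 to 23 bases before the start of Chad, and in Col11a2 it lay farther off, 143 to 138 bases before the start. It was absent from the windows of Acan, Col11a1 and Hapln1. The Hapln1 window (chr13:89540386-89540635) overlapped an annotated Hapln1 exon and lay inside the annotated gene, which starts at 89539796. Of 32851 mouse promoter windows of the same length, 12.4% held the TATA box, 16.5% the Sox core and 10.7% its variant. The Sox core was found in Col10a1, 185 to 180 bases before the start, and in no other of the 6 windows. The Acan window was 74.4% G or C, above 95.4% of all windows, while that of Col10a1 was 41.6%. These matches describe the sequence and show no binding.

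Sox9 and Acan were on in all 4 libraries, and the other 8 genes were near 0 in ligated carotids. In ApoE-/- plaques Col2a1 was the highest, at 28.6 UMIs per 10000 (28.4 to 28.7), followed by Chad at 3.58, Acan at 2.89, Col11a1 at 2.18 and Sox9 at 1.58. A UMI counts 1 transcript end whatever the transcript's length, so these levels were compared between genes without dividing by length. Col11a2 (0.946), Col9a3 (0.902) and Snorc (0.870) followed with intervals that overlapped from neighbour to neighbour, then Hapln1 at 0.668 and Col10a1 at 0.310.

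In Trf2T188A/ApoE-/- plaques Col2a1 again led at 19.96 UMIs per 10000 (19.8 to 20.1). Acan came before Chad there, at 2.81 against 2.51, and Sox9 at 1.85 before Col11a1 at 0.744. Col11a1, Col9a3 (0.716) and Col11a2 (0.670) had intervals that overlapped from neighbour to neighbour, and Snorc (0.599), Hapln1 (0.522) and Col10a1 (0.105) closed the order.

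Ligated carotids had a different order, with Acan first and Sox9 second in both genotypes. Acan stood at 1.70 UMIs per 10000 in control and 1.61 in Trf2T188A carotids, and Sox9 at 1.17 and 1.02. In control carotids no other member exceeded 0.0132, the level of Col10a1 (63 UMIs), and Col2a1 had 39 UMIs, Chad 13, Col9a3 10 and Col11a1 2 among 47713453. From Col10a1 down, neighbours in that order had overlapping intervals.

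**Figure D1:**
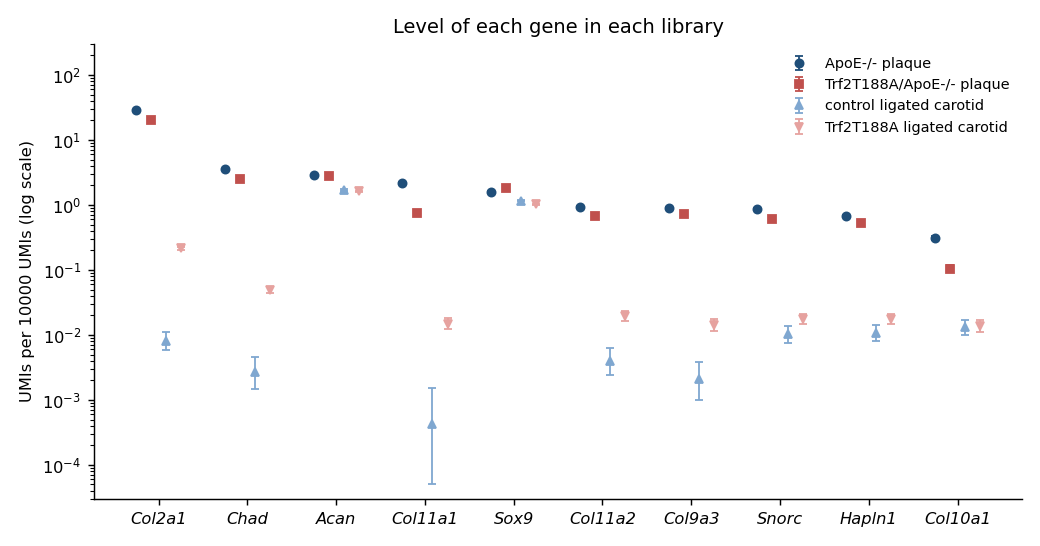
Level of each gene in each library, in UMIs per 10000 UMIs on a log scale, with 95% Poisson intervals as bars, and 1 point per library. Acan and Sox9 lie between 1.02 and 2.89 in all 4 libraries, while the other 8 genes are at least 0.105 in plaques and at most 0.216 in ligated carotids.

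ApoE-/- plaques and control ligated carotids were then set side by side. Of the 10 genes, 8 were at least 2-fold higher in plaques, where 19.2% of 17766 genes with at least 20 UMIs were. The log2 ratio was 11.77 (95% interval of the counts 11.32 to 12.26) for Col2a1, 12.34 (10.49 to 15.39) for Col11a1, which had only 2 UMIs in control carotids, and 10.36 for Chad. It was lowest among the 8 for Col10a1, at 4.55 (4.19 to 4.94). Sox9 was 0.44 and Acan 0.76 higher on the log2 scale, both under 2-fold. The same 8 genes passed in the Trf2T188A libraries, where 16.5% of genes did, with Col2a1 at 6.53 and Col10a1 at 2.94. Experiment, ApoE genotype, diet, vessel, age, cell selection, Cell Ranger version and depth differ together here and cannot be told apart.

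The excess of Sox9 and Acan in plaques rested on a small number of cells. In a comparison added after the data were seen, ApoE-/- plaque cells outside the chondrocyte-like class (82 of 1502 cells, described next) held Sox9 at 0.624 UMIs per 10000 against 1.17 in control carotids, a log2 ratio of -0.91. Acan was 0.826 against 1.70, a log2 ratio of -1.04, and Col10a1 turned to -0.34. There 7 of the 8 genes stayed at least 2-fold higher, where 18.6% of 17592 genes were, Col2a1 with a log2 ratio of 7.68.

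Cells were clustered with the study's settings but without the 10 genes and the other listed cartilage genes among the variable genes, so that the members did not form the clusters. In plaques, cluster 7 (82 ApoE-/- and 61 Trf2T188A/ApoE-/- cells) carried the chondrocyte-like markers chosen to name it, Ibsp, Cytl1, Scrg1, Cnmd, Fmod, Omd and Crispld1, all 7 at least 0.5 higher on the log2 scale than in other plaque cells. Its leading genes apart from the members were Ibsp, Chil1, Cytl1, Col9a1 and Col9a2. The 7 contractile markers summed to 6.998 UMIs per 10000 in its ApoE-/- cells and to 3.23 in its Trf2T188A/ApoE-/- cells, against 233 over all ApoE-/- plaque cells. Endothelial markers summed to 0.151 and 0.0656 in the class, with Ptprb at 0 in both genotypes, Vwf at 0 in ApoE-/- and Cdh5 and Cldn5 at 0 in Trf2T188A/ApoE-/- cells, and immune markers to 0.131 and 0.0962, with Cd52 at 0 in both. A Confetti UMI was found in 62.2% of the ApoE-/- and 82.0% of the Trf2T188A/ApoE-/- cells of the class, against 83.6% and 85.4% over all cells of those libraries.

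Over both plaque libraries together, the chondrocyte-like class held most transcripts of every member, but not in each library: for Col10a1 in Trf2T188A/ApoE-/- plaques it held 37.7%. Over both genotypes Col2a1 reached 258 UMIs per 10000 there, Chad 31.2, Acan 21.9, Col11a1 16.9, Sox9 11.7, Col11a2 8.35, Col9a3 8.14, Snorc 7.81, Hapln1 6.12 and Col10a1 2.16. The class was 82 of 1502 and 61 of 929 cells and held 93.1% of the UMIs of the 9 matrix genes in ApoE-/- and 90.3% in Trf2T188A/ApoE-/- plaques. For Sox9 it held less, 64.2% and 64.0%, and for Acan 74.0% and 66.1%.

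Fibromyocyte-like cells (cluster 3, with Tnfrsf11b, Lum, Dcn and Timp1 among its markers, 296 cells) came next for Col2a1, Acan and Chad. Sox9 and Hapln1 were higher in other, smaller plaque clusters, described below. In fibromyocyte-like cells Acan stood at 3.01 UMIs per 10000, Sox9 at 1.37, Col2a1 at 7.17 and Chad at 1.33. Few cells carried the last pair: in ApoE-/- plaques the highest cell held 3478 of the 5332 Col2a1 UMIs of the class and the highest for Chad 463 of 567. Acan was broader, found in 51.5% of fibromyocyte-like cells after each cell was thinned to 8000 UMIs, against 23.4% for Col2a1, and Sox9 was found in 51.6% of the ApoE-/- and 47.9% of the Trf2T188A/ApoE-/- cells.

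Contractile-like plaque cells (4 clusters, 1125 cells) held Sox9 at 0.272 and Acan at 0.317 UMIs per 10000. Col2a1 was found there in 11.5% of thinned cells at 0.163 UMIs per 10000, a share close to the 8.79% to 12.0% of the other clusters with over 50 cells that were neither chondrocyte-like nor fibromyocyte-like, so no expression particular to contractile-like cells was read from it. For each 100 Col2a1 UMIs, contractile-like cells held 15.7 of Chad and 5.47 of Col11a1, against 12.1 and 6.54 in chondrocyte-like cells. They held 8.96 of Col11a2, 6.97 of Col9a3 and 6.22 of Col10a1, against 3.23, 3.15 and 0.835. They held 167 of Sox9, 194 of Acan, 37.1 of Snorc and 17.2 of Hapln1, against 4.53, 8.50, 3.02 and 2.37 in chondrocyte-like cells.

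Snorc had an order of its own outside the chondrocyte-like class. It stood at 0.0605 UMIs per 10000 (0.0512 to 0.0710) in contractile-like cells and at 0.0166 (0.00969 to 0.0266) in fibromyocyte-like cells, so the intervals were apart and the order was opposite to that of the other 9 genes. In contractile-like cells it was found in 5.63% of thinned cells, and in fibromyocyte-like cells in 2.19%. Snorc was not particular to contractile-like cells. In ApoE-/- plaques the unnamed cluster 1 held 58 Snorc UMIs in 224 cells. Contractile-like cluster 0 held 57 in 334 cells, and contractile-like cluster 4 held 15 in 162. Hapln1, the link protein gene, stood out in plaque cluster 8, an unnamed cluster of 77 cells led by Adamtsl1, Mdga2 and Negr1, at 0.256 UMIs per 10000 against 0.118 in fibromyocyte-like cells.

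In ligated carotids Sox9 and Acan were spread over all 3 large clusters. Clusters 0 and 1, which held 3997 and 3875 of 10359 cells and had no name by the marker rule, carried Acan at 1.91 and 1.62 UMIs per 10000 and Sox9 at 1.03 and 0.926. Cluster 2 (2107 cells, also unnamed, led by Ecrg4, Lum and Gdf10) had the higher Sox9, 1.58, and the lower Acan, 1.36. Its best marker list was the chondrocyte-like list (mean log2 excess of 1.51, 4 markers at 0.5 or more), but the fibromyocyte-like list followed at 1.27, within the 0.25 margin that the naming rule asks for. With all genes allowed among the variable genes the matching cluster (1055 control and 930 Trf2T188A cells) did receive the chondrocyte-like name. At a lower resolution a cluster of 2735 control and 3311 Trf2T188A cells received it too. The absence of a named class in ligated carotids thus depends on this rule and on the clustering, and the name does not single out 1 cluster there. Endothelial-like cells (127) had Acan at 0.143 and Sox9 at 0.0955, and immune-like cells (78) had 0.254 and 0.320. After thinning to 5000 UMIs, Sox9 was found in 3.31% of endothelial-like cells (median of 12188 UMIs before thinning) against 28.0% to 44.2% in clusters 0 to 2, and Acan in 4.13% against 32.8% to 48.0%.

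**Figure D2:**
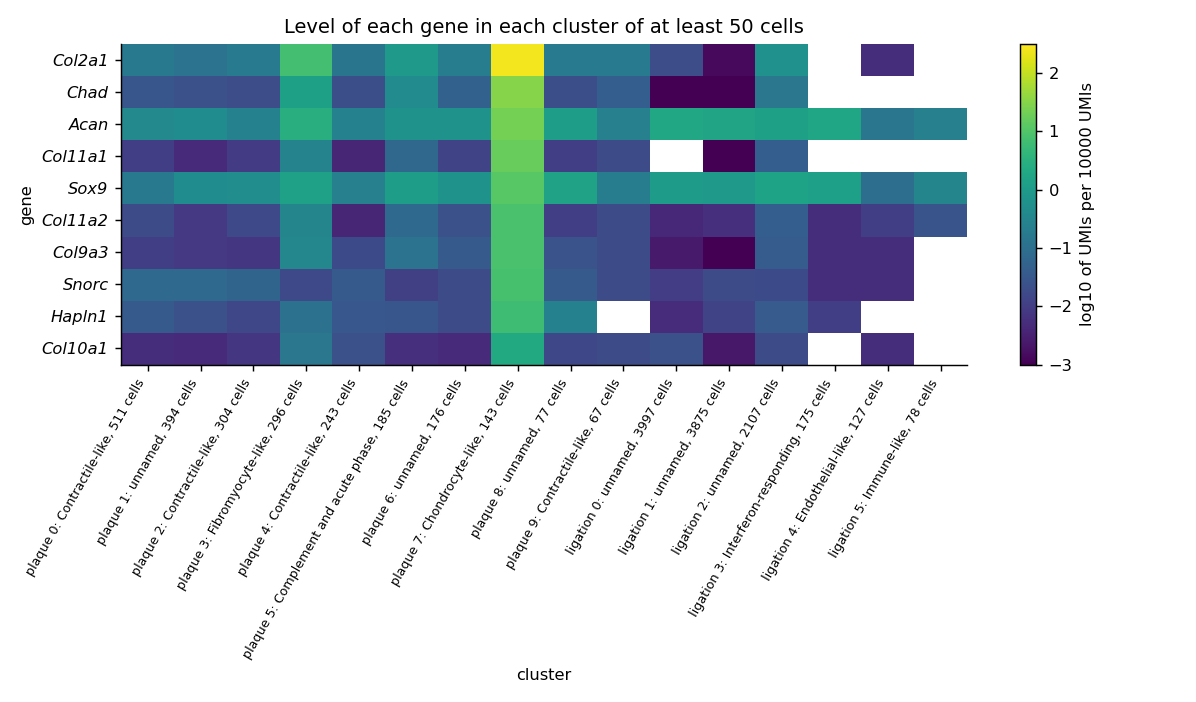
Log10 of the level (UMIs per 10000 UMIs, both genotypes together) of each gene in each plaque and ligation cluster of at least 50 cells, with white where no UMI was found. Plaque cluster 7 is the highest for every gene, with Col2a1 at 258, and only the rows of Acan and Sox9 stay near or above 0.1 in every column.

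Cell by cell, plaques held cells with many of the genes and ligated carotids hardly any. With all cells thinned to 5000 UMIs, 77 of 1480 ApoE-/- plaque cells (5.20%, exact binomial 95% interval 4.13 to 6.46%) and 55 of 862 Trf2T188A/ApoE-/- plaque cells (6.38%, 4.84 to 8.22%) had at least 5 of the 10. None of 4642 control carotid cells did, which allows a share of up to 0.0646% with a floor of 3 cells (exact binomial upper limit 0.0794%), and 4 of 5238 Trf2T188A carotid cells did (0.0764%). Of the plaque cells with at least 5, 72 and 46 lay in the chondrocyte-like class. A cell with at least 1 of the genes was more frequent in ligated carotids, 61.5% and 59.7%, than in plaques, 41.3% and 49.4%. Sox9 alone was found in 34.2% of control carotid cells and 21.6% of ApoE-/- plaque cells at this depth although its level was lower in the carotids, so no order of expression was read from these shares.

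**Figure D3:**
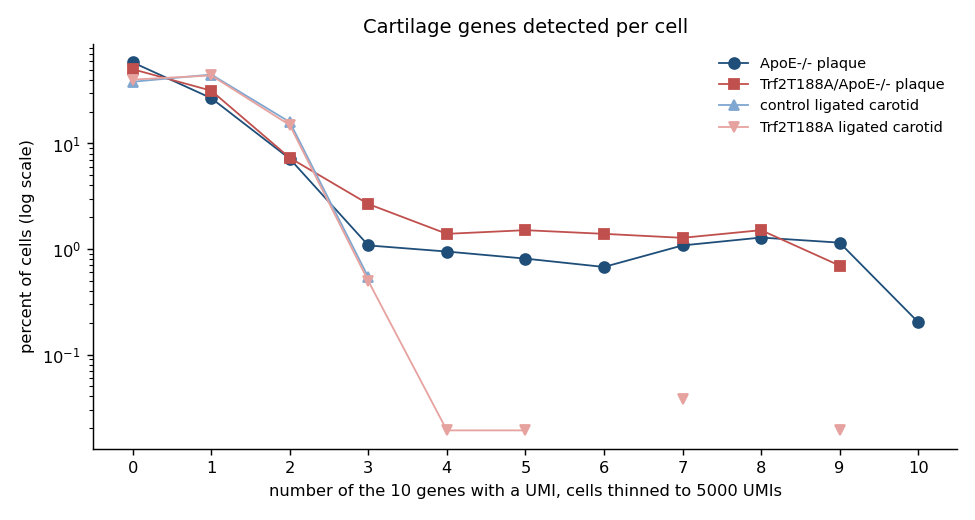
Percent of cells (log scale) with a given number of the 10 genes detected, after thinning every cell to 5000 UMIs, with 1 line per library and no point where no cell was found. The plaque lines lie between 0.676% and 2.67% from 3 to 9 genes, while control carotid cells end at 3 genes and 4 Trf2T188A carotid cells lie at 5 or more.

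Detection of each gene was set against how many of the other 9 a plaque cell had. Detection follows a gene's abundance as well, and the Col2a1 share in cells with none of the others lies within the 8.79% to 12.0% of the clusters named above. In ApoE-/- plaque cells thinned to 8000 UMIs, Sox9 was found in 19.1% of cells with none of the other 9 genes, in 33.8% with 2 of them, in 70.0% with 3 to 4 and in 95.8% with 5 to 9. Acan ran alike, from 17.01% to 30.3%, 80.0% and 100%. Col2a1 stood at 10.7%, 18.3%, 63.6% and 100% in the same bins, and the bin with 3 to 4 genes held only 30 to 33 cells for these genes.

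Other members were found in a larger share of cells at 5 to 9 of the others than at 3 to 4. Chad was found in 16.7% of ApoE-/- cells with 3 to 4 of the others and in 74.7% with 5 to 9. Snorc was found in 2.86% and 42.2%, although 28 of the cells with Snorc had none of the others against 35 with 5 to 9, and Col10a1 in 6.82% and 23.2%. In Trf2T188A/ApoE-/- plaques these genes had the same order at 5 to 9 others, from Acan at 97.9%, Col2a1 at 95.8% and Sox9 at 89.6% to Chad at 69.8%, Snorc at 28.6% and Col10a1 at 14.04%. Cells were captured at 1 time, so these shares describe detection across cells and not time.

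**Figure D4:**
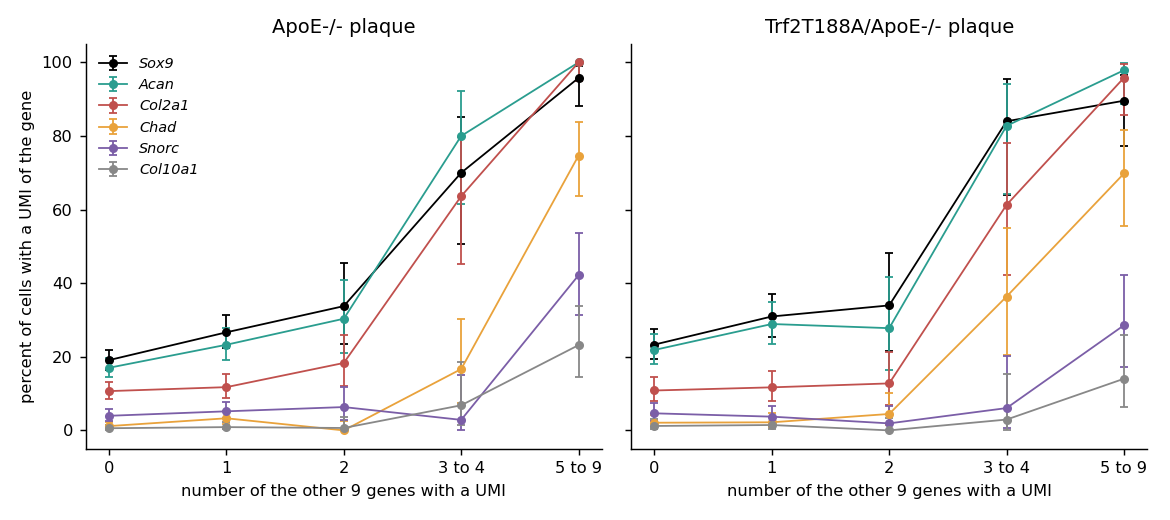
Percent of plaque cells (thinned to 8000 UMIs) with a UMI of the named gene, against how many of the other 9 genes the cell had, with exact binomial 95% intervals. In both genotypes Sox9, Acan and Col2a1 are above 60% at 3 to 4 other genes, while Snorc and Col10a1 stay under 10% there.

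All 45 pairs of members had a positive Spearman rho across thinned plaque cells in both genotypes, with a median of 0.368 over 1410 ApoE-/- cells and 0.359 over 807 Trf2T188A/ApoE-/- cells. A second thinning draw gave 44 of 45 in Trf2T188A/ApoE-/- cells, with the lowest rho at -0.00051. Cells of a library share its background and depth, so rho is a description. The highest pair in both genotypes was Col9a3 with Col11a2, at 0.760 and 0.641, and the lowest was Col10a1 with Snorc, at 0.121 and 0.00289. Of 90 ApoE-/- cells with Col9a3 and 97 with Col11a2, 71 had both, 78.9% and 73.2% of them. Sox9 was most like Col11a2, at 0.439 and 0.434.

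The median rho was lower within the chondrocyte-like class and outside it than over all cells. Among chondrocyte-like cells alone the median rho was 0.259 (79 ApoE-/- cells) and 0.195 (55 Trf2T188A/ApoE-/- cells), and outside the class it was 0.0455 and 0.104. Some pairs were higher within the class than over all cells, such as Col2a1 with Col11a1 (0.713 against 0.441 in ApoE-/- cells) and Col2a1 with Col9a3 (0.602 against 0.493 in Trf2T188A/ApoE-/- cells). Others were below 0. Within the class Col11a2 and Chad stood at -0.18 in ApoE-/- cells, and Col10a1 at -0.28 with Chad and -0.27 with Sox9 in Trf2T188A/ApoE-/- cells. In control carotids no pair among the 36 that could be computed exceeded 0.0694. In Trf2T188A carotids 42 of 45 pairs were positive and 4 were at 0.3 or more, the highest Col11a1 with Chad at 0.474, which shared 3 cells.

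Among 9647 other genes found in at least 5% of thinned ApoE-/- plaque cells, the 10 most like Sox9 were Fmod, Mmp2, Lum, Dcn, Gdf10, Ecrg4, Fzd9, Crispld1, Frzb and Sdk2. Their rho ran from 0.356 to 0.402 over 1410 cells, and from 0.310 to 0.419 for the same genes over 807 Trf2T188A/ApoE-/- cells. The 10 most like the summed 9 matrix genes were Fmod (0.424), Fzd9, Sparc, Crispld1, Sdk2, Fn1, Gdf10, Rarres1, Gm28153 and Xylt1 (0.328), and in the other genotype their rho ran from 0.347 to 0.514. Fmod, Fzd9, Crispld1, Sdk2 and Gdf10 were in both lists, and Fmod and Crispld1 are also among the chondrocyte-like markers.

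In plaques the genotypes differed by at least 2-fold in 2 of the 10 genes, Col11a1 and Col10a1, where 3.98% of 17280 genes did. Col11a1 was 2.18 UMIs per 10000 in ApoE-/- and 0.744 in Trf2T188A/ApoE-/- plaques, a log2 ratio of -1.55 (95% interval of the counts -1.62 to -1.47). Col10a1 was 0.310 and 0.105, a ratio of -1.57 (-1.77 to -1.37). Both were lower in the library with the Trf2T188A mutant. With the 5 cells of each library that held the most member transcripts left out, Col2a1 also passed, at -1.17, and Col10a1 moved to -1.11.

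The remaining genes were within 2-fold between the plaque libraries. Col2a1 (-0.52), Chad (-0.51), Col11a2 (-0.50), Snorc (-0.54), Hapln1 (-0.36) and Col9a3 (-0.33) were lower in Trf2T188A/ApoE-/- plaques, and the median of the 10 was -0.50 against -0.02 over all genes tested. Acan was nearly the same, at -0.04 (-0.08 to 0.01), and Sox9 was higher, at 0.23 (0.17 to 0.28). The intervals cover counting error only, and the spread between mice is not known.

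Within the chondrocyte-like class the same 2 genes passed by summed UMIs, where 6.17% of 10677 genes did. This count depended on the measure. By the mean over cells 3 of the 10 passed, where 10.9% of genes did. Without the 5 cells of each library with the most member UMIs 3 passed too, where 6.57% did. Col11a1 was at 0 in 24 of 82 ApoE-/- and in 34 of 61 Trf2T188A/ApoE-/- cells, with a median cell at 13.98 and 0 UMIs per 10000, and its log2 ratio over the class was -1.63 (-1.70 to -1.55). Col10a1 was at 0 in 52 of 82 and 51 of 61 cells and at 3.32 against 0.415 UMIs per 10000, a ratio of -2.998 (-3.32 to -2.70). Col2a1 was on in nearly every cell of the class, 80 of 82 and 58 of 61. Its median cell held 232 (0 to 1396) and 66.9 (0 to 900.0) UMIs per 10000, and its ratio over the class was -0.59. Restricting the class to cells with a Confetti UMI, a choice made after seeing the data, left Col11a1 at -1.55 and Col10a1 at -3.04.

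Over the summed class Sox9 and Acan had the ratios nearest to 0, though median cells of Sox9 were farther apart. Every Trf2T188A/ApoE-/- cell and 81 of 82 ApoE-/- cells of the class had Sox9, with a median cell at 10.2 and 5.83 UMIs per 10000 and a ratio over the class of 0.15. Acan was on in all cells of both genotypes, with medians of 16.5 and 18.7 and a ratio of -0.27. Among cells with a Confetti UMI the Sox9 ratio was -0.03. The ranges of cells overlapped for every gene, with the highest cell for Col11a1 at 109 and 35.0 UMIs per 10000 and for Col10a1 at 68.6 and 11.6. Summed over the class, the fibromyocyte-like markers were at 243 UMIs per 10000 in ApoE-/- and 304 in Trf2T188A/ApoE-/- cells the chondrocyte-like markers at 330 and 162, and the complement and acute phase markers at 19.5 and 42.3, and the part of these differences in the member ratios was not tested.

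**Figure D5:**
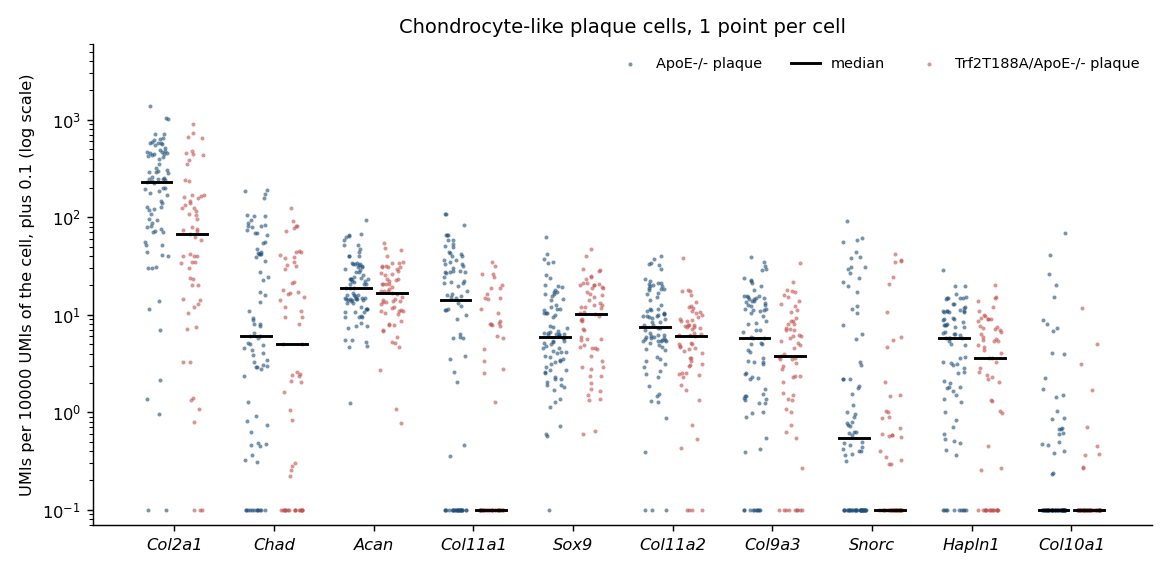
UMIs per 10000 UMIs of the cell, plus 0.1 so that cells at 0 can be drawn, on a log scale, for each chondrocyte-like plaque cell (82 ApoE-/-, 61 Trf2T188A/ApoE-/-), with black bars for the medians. Medians are at 0 for Col11a1 and Snorc in Trf2T188A/ApoE-/- cells and for Col10a1 in both genotypes, and the clouds of the genotypes overlap for all genes.

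Col10a1, the hypertrophic collagen, also differed in where it was found. In ApoE-/- plaques 96.9% of its 1175 UMIs lay in the chondrocyte-like class and 0.936% in fibromyocyte-like cells. In Trf2T188A/ApoE-/- plaques 37.7% of its 252 UMIs lay in the class and 57.1% in fibromyocyte-like cells. Few cells stood behind these shares. The highest ApoE-/- cell held 314 Col10a1 UMIs with 1450 of Col2a1 and 3684 of Ibsp, a bone sialoprotein gene, while the highest Trf2T188A/ApoE-/- cell held 72 with none of Col2a1, Acan or Ibsp. The next in that library, also fibromyocyte-like, held 46 with 9 of Col2a1 and 735 of Ibsp.

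In ligated carotids 5 of the 10 genes were at least 2-fold higher in Trf2T188A than in control, where 4% of 17813 genes were 2-fold apart in either direction. The log2 ratio was 5.16 (3.27 to 8.22) for Col11a1, 4.72 (4.26 to 5.22) for Col2a1, 4.197 for Chad, 2.78 for Col9a3 and 2.32 for Col11a2. Sox9 was -0.19 and Acan -0.07, both slightly lower in Trf2T188A. Snorc was 0.79, Hapln1 0.70 and Col10a1 0.05.

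These 5 ratios were carried by a handful of cells. Of 1455 Col2a1 UMIs in Trf2T188A carotids, 1201 lay in 1 cell, which also held 262 of 337 Chad, 90 of 101 Col11a1, 67 of 134 Col11a2 and 57 of 97 Col9a3 UMIs. That cell had 29396 UMIs, all 10 genes, 1183 UMIs of Ibsp, 2 of Acta2 and 1 of Myh11, and lay in cluster 2. A further cell held 149 Col2a1 and 65 Ibsp UMIs. The 4 Trf2T188A carotid cells with at least 7 of the 10 genes before thinning were all in cluster 2, and no control carotid cell had 5 or more. Without the highest cell of each library 4 of 9 genes still passed, where 3.97% of all genes did, with Col2a1 at 2.20 and Chad at 2.03. Without the 5 highest cells of each library none of the 9 genes that could still be tested was 2-fold apart, where 3.96% of all genes were, and Col2a1 was at 0.92.

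The other cartilage matrix genes were read from a list of 17 that included Col9a1, Col9a2, Comp, Prg4 and Prelp. The 3 highest in plaques, Comp (4.67 UMIs per 10000), Prelp (4.39) and Prg4 (4.11), encode a cartilage glycoprotein, a leucine-rich repeat proteoglycan and the lubricant lubricin. Between plaque genotypes 3 of the 16 tested were 2-fold apart, against 3.98% of all genes. Col9a2, a partner chain of Col9a3, was lower in Trf2T188A/ApoE-/- plaques (log2 ratio -1.24), as was Matn3 (-2.01), while Epyc was higher (2.15) with all of its 31 UMIs in 1 cell. In ApoE-/- plaques 1 cell held 30 of 57 Matn3 UMIs, against 9 UMIs in the other library, and 1 cell held 343 of 1689 Col9a2 UMIs. The median was 0.13, and Prg4 was 0.71 higher.

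Among 11 Sox9 partners and chondrocyte regulators, 1 of the 10 tested was 2-fold apart between plaque genotypes, again against 3.98% of all genes. This was Foxa2, lower at -1.11 with 51 and 15 UMIs. Sox5 (0.13) and Sox6 (0.08), which act with Sox9, were within 2-fold, as were Trps1 (0.13), Mef2c (-0.07) and Runx2 (-0.02), and the median was 0.05. Runx2, a regulator of hypertrophy and bone, was at -0.81 within the chondrocyte-like class. Against control ligated carotids, ApoE-/- plaques had 7 of 10 higher, where 19.2% of all genes were, with Sox5 at 2.01 and Sox6 at 2.24, and Sox8 lower at -2.14.

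None of 14 genes of chondroitin sulphate synthesis and sulphation was 2-fold apart between plaque genotypes. Xylt1, which starts the chains, was at -0.01, Chsy3 at 0.05 and Chsy1 at 0.30, and the median was 0.01. Of 5 aggrecan- and collagen-cleaving proteases only Mmp13, the collagenase of hypertrophic cartilage, was apart, higher in Trf2T188A/ApoE-/- plaques at 3.59 (352 against 46 UMIs, in 15 and 11 cells). Adamts1 (-0.22), Adamts5 (-0.03) and Adamts15 (-0.17) were within 2-fold. In ligated carotids Mmp13 was also higher in Trf2T188A, with 78 UMIs in 15 cells against 2 UMIs in 2 cells.

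The 5 hypertrophy and mineral genes lay on both sides of 0. Alpl, tissue-nonspecific alkaline phosphatase, was lower in Trf2T188A/ApoE-/- plaques at -1.53 (0.481 against 0.167 UMIs per 10000), and Panx3, a channel gene of hypertrophic chondrocytes, had 137 UMIs in 9 ApoE-/- cells and 0 in the other library, which puts the log2 ratio at -4.86 or below with a floor of 3 counts over the library. Mmp13 was higher, Ihh was at 0.22 and Phospho1 at -1.27 with 19 and 5 UMIs, an interval from -3.05 to 0.20. In the chondrocyte-like class, without thinning, Alpl was found in 42 of 82 ApoE-/- and 10 of 61 Trf2T188A/ApoE-/- cells. Of the 5 genes, 3 were lower and 1 higher by 2-fold, with 3.98% of all genes 2-fold apart.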

How the data were processed

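Single-cell RNA-seq (10x 3' libraries) of 4 mouse artery samples was analysed. Per the submitters' processing notes the reads were aligned to GRCm38 with Cell Ranger 7.0.0 (plaques) or 6.1.2 (ligation), and Seurat 4.3.0 or 3.2.1 was used. The deposited values are a normalised signal, UMIs scaled by the authors to 10000 per cell, and UMI counts were recovered from them (100% of values within 0.01 of a whole number). UMIs were summed per library or class. With 1 library per group no test across samples was possible, no count model was run and no p-value is given. Intervals are 95% exact Poisson, conditional binomial or Clopper-Pearson intervals (scipy 1.17.1) and cover counting error only.

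A gene was counted as different at 2-fold or more with at least 20 UMIs in both groups together. Shares of cells were taken after thinning to 8000 UMIs (plaques, leaving out 92 and 122 cells) or 5000 (ligation, leaving out 325 and 154, and all comparisons between experiments). Counts of class cells with a gene or at 0, numbers of cells behind the UMIs of list genes, and Confetti shares were taken without thinning. Cells were clustered with Seurat 5.3.0 in R 4.3.3 on 2000 variable genes, without 61 held-out genes, with 18 components and resolution 0.9 (plaques) or 17 and 0.2 (ligation). A cluster was named where its best marker list had a mean log2 excess of at least 0.5, at least 3 markers at 0.5 and a margin of 0.25 over the next list. This naming rule was set after the clusters were seen. Scrublet (scanpy 1.11.5) called at most 0.323% of cells and had not worked, so doublets were kept and cells with the top 5% of scores were left out as an alternative. The members, gene lists and markers were chosen with earlier results of these data known. All 10 members are named, list genes are named where 2-fold apart between plaque genotypes or among the 3 highest in level (Sox6, Sox8 and Runx2 were named after their values were seen), and for likeness the 10 highest rho. The library ratio, its interval and the thinning were tested on simulated Poisson counts. These lack the gathering of UMIs in few cells seen here, and clustering, naming and rho were not tested in this way.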

Additional observations from a re-analysis of the deposited data

Results flagged for a closer look

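For 8 of the 10 genes the genotype ratio (Trf2T188A over its control) had opposite signs in plaques and in ligated carotids, with counting intervals off 0 in both. Col10a1 also had opposite signs, at -1.57 and 0.05, with a ligation interval from -0.43 to 0.53 that spans 0. The difference between the experiments was not tested, since each side rests on 1 library per genotype. Among the 8, only Sox9 had a ratio above 0 in plaques, with a log2 ratio of 0.23 there and -0.19 in ligated carotids. The other 7 were lower in plaques and higher in ligated carotids. Col2a1 was at -0.52 and 4.72, Chad at -0.51 and 4.197, and Col11a1 at -1.55 and 5.16. Col9a3 was at -0.33 and 2.78 and Col11a2 at -0.50 and 2.32. Hapln1 was at -0.36 and 0.70, and Snorc at -0.54 and 0.79. In ligated carotids 1 cell held 1201 of the 1455 Col2a1 UMIs of the Trf2T188A library. That cell also held 262 of 337 Chad, 90 of 101 Col11a1, 67 of 134 Col11a2, 57 of 97 Col9a3 and 30 of 119 Hapln1 UMIs. Without the highest cell of each library Hapln1 stood at 0.0132 UMIs per 10000 in Trf2T188A and 0.0109 in control carotids. The share of all genes with opposite signs is not given here, so the count of 8 is not read as a result about the set.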

How the results depend on the processing

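No paired analysis was possible because there was 1 library per group, and for the same reason no replicate could be left out. Of 446 alternatives, 66 of the main results stayed within the limits set and 22 moved, and of the single genes 248 stayed, 109 moved and 1 reversed. With a pseudocount of 1 UMI per 10000 the members counted as 2-fold apart went from 2 to 0 between plaque genotypes, from 5 to 0 between ligation genotypes and from 8 to 3 between ApoE-/- plaques and control carotids, where 0.0174%, 0% and 0.495% of all genes were counted, since such a pseudocount exceeds most of these levels. Leaving out the 5 highest cells of each library, chosen after seeing the data, took the ligation count from 5 to 0, and leaving out the 1 highest took it to 4. In plaque cells outside the chondrocyte-like class, also chosen after seeing the data, the Col10a1 log2 ratio to control carotids turned from 4.55 to -0.34. Without thinning, the shares of cells with a UMI in ApoE-/- plaques, Trf2T188A/ApoE-/- plaques, control and Trf2T188A carotids were 43.1%, 48.1%, 47.2% and 48.8% for Sox9, 34.7%, 43.1%, 54.5% and 60.3% for Acan, and 32.0%, 33.9%, 0.604% and 1.02% for Col2a1. A second thinning draw gave 0.592% for Col2a1 in Trf2T188A carotids against 0.344%. The median rho was 0.259 and 0.195 within the chondrocyte-like class and 0.0455 and 0.104 outside it. With all genes allowed among the variable genes the class held 92.5% of matrix UMIs in Trf2T188A/ApoE-/- plaques against 90.3%. Lowering the minimum to 1 UMI raised the share of all genes 2-fold apart to 19.9% between plaque genotypes and 12.7% between ligation genotypes, and a minimum of 100 lowered it to 0.907% and 1.39%, with 2 and 5 members counted each time. Col11a1 had 2 UMIs in control carotids, so its ratios to that library have wide intervals.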

Other observations

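Other cartilage genes were also higher in chondrocyte-like plaque cells than in the other plaque cells, given here as levels over both genotypes, with no test, since some of these genes lead that cluster. Comp stood at 31.8 UMIs per 10000 in the class and 1.91 outside it, Prg4 at 16.9 and 2.80, and Prelp at 6.64 and 4.16. Xylt1, which starts chondroitin sulphate chains, stood at 7.77 and 0.398, while Chsy1, which extends them, stood at 1.21 and 0.854. The Sox9 partners Sox5 and Sox6 stood at 4.68 and 4.998 in the class and 1.53 and 1.02 outside it, and Runx2 at 0.704 and 0.111. The aggrecanase genes Adamts1 and Adamts5 had the opposite order, at 1.10 and 0.442 in the class and 1.99 and 0.676 outside it.

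In the small fibroblast clusters of the plaques (22 and 13 cells) Sox9 stood at 1.63 and 1.28 UMIs per 10000 while Acan was at 0 and 0.0414. In ligated carotids 102 of the 155 Col10a1 UMIs lay in cluster 0, at 0.0233 UMIs per 10000.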
